A study of Mus musculus with 6 samples.

Results

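The genes described here are 36 interferon-stimulated genes of the mouse, taken from a fixed list of names and not by any measured value. Of these, 35 had a row in all 6 count tables, among 20279 gene symbols with a row in any table, and Mx1 was not analysed here. All libraries are single-cell preparations from spleen, by their labels, of 10-week-old female mice. The series text gives the strain as C57BL/6, and no group carries a genotype or drug. There were 3 protocols with 2 libraries each, sequenced as long reads on a Nanopore instrument. The 3prime protocol was built on the 3′ v3.1 chemistry of 10x Genomics and the standard 5prime protocol on its 5′ v2 chemistry. The modified 5prime protocol was the latter with 1 µl of 10 mM dNTP added at reverse transcription and at amplification. Its reverse transcription extension lasted 2 h in place of 45 min, and its amplification extension 3 min in place of 1 min. Libraries with replicate number 1 are described as strained spleen with red cell lysis, and those with replicate number 2 as collagenase-isolated islets with insulin cDNA removed, although all 6 carry the spleen label. The labels do not say whether replicates came from separate animals, so p-values measure only how libraries vary, and that variation may be technical.

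Interferons are secreted proteins that warn cells of infection. Type I interferon acts through its receptor, the kinases Jak1 and Tyk2 and a complex with Stat2 and Irf9, which binds the interferon-stimulated response element (ISRE) in target promoters, whereas interferon gamma acts at another element (GAS). In spleen, many of the target genes are also transcribed at a low constant level without infection, and plasmacytoid dendritic cells are known as a major source of type I interferon.

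Of the 35 genes, 29 had a promoter window, from 250 bases before to 50 bases after the transcription start, in the RefSeq table (assembly GRCm38.p6). An ISRE-like match (GAAA, any 2 bases, then GAAA, on either strand, with overlapping matches counted) lay in the window of 19 of the 29 genes (65.5%), against 1079 of 27025 genes in the table (3.99%). A GAS-like match (TTCNNNGAA, either strand) lay in 7 of the 29 (24.1%), against 9.55% of the genes in the table. A match describes the letters and is not a measured binding site. The stretches below are printed for 7 genes whose levels the results turn on, with the ISRE-like matches in capitals and 10 bases on either side.
Isg15, chr4:156200865-156200906, minus strand: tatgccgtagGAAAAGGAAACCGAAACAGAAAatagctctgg
Rsad2, chr12:26456553-26456582, minus strand: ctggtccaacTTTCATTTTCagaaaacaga
Ifit1, chr19:34640775-34640823, plus strand: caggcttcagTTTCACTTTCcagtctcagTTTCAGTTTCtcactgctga
Ifit3, chr19:34583363-34583426, plus strand: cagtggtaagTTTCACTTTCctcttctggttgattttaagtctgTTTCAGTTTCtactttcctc
Bst2, chr8:71537577-71537612, minus strand: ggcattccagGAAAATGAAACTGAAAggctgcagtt
Ifitm2, chr7:140955988-140956017, minus strand: ccaccaacagGAAAAGGAAAttgctagaga
Igtp, chr11:58199512-58199541, plus strand: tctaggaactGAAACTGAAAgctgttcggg
Each is written 5′ to 3′ on the strand of its gene, so a match on the other strand reads TTTC, any 2 bases, TTTC. Isg15 had 3 overlapping matches. Ifit1, Ifit3 and Bst2 had 2 matches each, and Rsad2, Ifitm2 and Igtp 1 each. No match lay in the windows of Ifi209, Ifi47, Ifit2, Irf7, Irf9, Oasl2, Samhd1, Slfn1, Slfn2 and Xaf1.

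Levels are given in CPM, a gene's summed counts over kept cells, divided by all counts of those cells and multiplied by 1000000. A cell was kept if it had 200 genes or more and mitochondrial counts of no more than 20%. Kept cells numbered 861 to 4045 per library, and the tables held 723341 to 2627253 counts per library. In standard 5prime replicate 1 only 34.0% of the barcodes passed, against 78.3% to 89.9% in the other libraries. Globin transcripts took 3.92% to 6.84% of the counts of kept cells in the replicate 1 libraries and 0.0391% to 0.128% in the replicate 2 libraries. Summed pancreas markers were at 2.50 to 42.3 CPM and neutrophil markers at 5.47 to 557 CPM. The insulin genes Ins1 and Ins2 gave 15 and 48 counts in modified 5prime replicate 2 and 0 in every other library. Libraries shared 0 to 14 kept barcodes. In every library below, the value of replicate 1 comes first and that of replicate 2 second. CPM uses library totals, without the scaling factors given further below. Totals in place of factors moved the median log2 difference of all genes by -0.38 in standard 5prime against 3prime. For modified 5prime against 3prime the move was -0.36. Statements on which CPM values overlap carry that shift and were not compared with the share over all genes. Together the 35 genes took 3899 to 5207 CPM, and 73.6% to 90.8% of kept cells held at least 1 of their counts.

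The transcription factors of the pathway were detected in every library. Irf7, which amplifies the type I response, was at 53.3 and 53.8 CPM in 3prime, 101 and 93.9 in standard 5prime, and 40.9 and 70.4 in modified 5prime. Irf9, the DNA-binding partner of the signalling complex, was at 109 and 94.6, 73.8 and 89.7, and 77.6 and 74.7 CPM in the same order. Stat2, its transactivating partner, was at 55.0 and 69.1, 46.5 and 42.3, and 35.0 and 54.2 CPM. The standard 5prime pair lay above all other libraries for Irf7. For Irf9 and for Stat2 it overlapped the modified pair and lay below the 3prime pair.

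Isg15 encodes a ubiquitin-like protein that is conjugated to other proteins. It was at 271 and 70.3 CPM in 3prime, 446 and 112 in standard 5prime, and 102 and 99.0 in modified 5prime. The 3prime and standard 5prime replicate 1 libraries stood above the other 4. Usp18, the protease that removes Isg15 and damps receptor signalling, ranged from 24.2 to 43.7 CPM. The RNA-binding proteins of the IFIT family and the oligoadenylate synthetase family were scarce. Ifit1 ranged from 15.9 to 44.7, Ifit2 from 2.73 to 24.7, Ifit3 from 14.2 to 35.6 and Oas1a from 1.67 to 24.7 CPM. Oasl2 was at 24.6 and 21.0 CPM in 3prime, 24.6 and 19.6 in standard 5prime, and 10.0 and 18.1 in modified 5prime, so that the modified pair lay below the other libraries. These 5 genes gave between 129 and 288 counts each over the 6 libraries.

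Rsad2 encodes viperin, an enzyme that blocks viral replication. Its levels were 133 and 9.30 CPM in 3prime, 107 and 7.22 in standard 5prime, and 49.2 and 8.56 in modified 5prime. All 3 replicate 1 libraries lay above all 3 replicate 2 libraries. Ifi27l2a, a small membrane protein induced by type I interferon, was at 483 and 406 CPM in 3prime, 563 and 639 in standard 5prime, and 955 and 777 in modified 5prime. The 3 protocols did not overlap for Ifi27l2a.

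Samhd1, a nucleotide phosphohydrolase that restricts retroviruses, was at 518 and 540 CPM in 3prime, 265 and 298 in standard 5prime, and 260 and 332 in modified 5prime. Trim30a, a regulator of innate signalling, was at 136 and 160, 95.7 and 92.8, and 92.6 and 105 CPM. Parp14, an ADP-ribosyltransferase, was at 132 and 112, 84.7 and 57.8, and 53.4 and 79.9 CPM. The 3prime pair lay above all 5prime libraries for each of these genes. Xaf1, a pro-apoptotic protein, was at 84.7 and 90.9, 73.8 and 70.7, and 51.7 and 57.6 CPM, with no overlap between protocols. With the scaling factors, none of Samhd1, Trim30a, Parp14 and Xaf1 passed in standard 5prime against 3prime (edgeR, adjusted p from 0.0857 to 0.774). The log2 difference of Xaf1 was then 0.09 ± 0.19. Rtp4, a chaperone of membrane receptors, was at 60.7 and 72.4, 98.4 and 89.2, and 55.1 and 69.9 CPM, with the standard 5prime pair above the rest.

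Among the membrane restriction factors, Bst2 (tetherin, which holds budding virus at the cell surface) was at 152 and 224 CPM in 3prime, 232 and 236 in standard 5prime, and 155 and 208 in modified 5prime. Ifitm3, which hinders viral fusion in endosomes, was at 130 and 165, 216 and 235, and 100 and 239 CPM. Ifitm2, its close relative, was at 30.3 and 57.8, 46.5 and 69.6, and 38.4 and 73.8 CPM. Replicate 2 was the higher library of each protocol for all 3 genes. Zbp1, a sensor of Z-form nucleic acid, was at 52.1 and 81.6, 79.3 and 88.2, and 55.1 and 84.2 CPM, again higher in replicate 2. Ifih1, the sensor of long double-stranded RNA known as MDA5, ranged from 7.22 to 33.8 CPM.

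The Schlafen genes regulate growth and viral replication in lymphocytes. Slfn1 was at 99.6 and 106 CPM in 3prime, 131 and 117 in standard 5prime, and 82.6 and 92.8 in modified 5prime. Slfn2 was at 360 and 423, 331 and 386, and 350 and 379 CPM, with all pairs overlapping. Slfn5 was at 490 and 425, 213 and 174, and 190 and 191 CPM, with the 3prime pair above all others. Slfn8 was at 79.6 and 76.8, 60.1 and 38.7, and 67.6 and 54.7 CPM. The PYHIN genes encode nuclear sensors of DNA. Ifi203 was at 559 and 437, 221 and 244, and 285 and 339 CPM. Ifi209 was at 342 and 302, 180 and 196, and 190 and 191 CPM, and Ifi213 at 215 and 190, 167 and 152, and 165 and 152 CPM. For these 3 PYHIN genes the 3prime pair lay above all 5prime libraries in CPM. With the scaling factors, Ifi213 was at 0.02 ± 0.21 in standard 5prime against 3prime on the log2 scale (edgeR, adjusted p = 0.955). Ifi209 was at -0.39 ± 0.20 (adjusted p = 0.178), and Ifi203 passed.

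The interferon-induced GTPases take part in the defence against intracellular pathogens. Ifi47 was at 130 and 180 CPM in 3prime, 251 and 266 in standard 5prime, and 149 and 230 in modified 5prime. Igtp (Irgm3) was at 55.5 and 79.6, 73.8 and 102, and 60.1 and 101 CPM, and Irgm1 at 75.0 and 85.7, 79.3 and 84.1, and 64.2 and 94.2 CPM. Only Ifi47 separated the standard 5prime pair from the other libraries among these 3. The guanylate-binding protein Gbp4 was at 95.1 and 104, 24.6 and 39.2, and 28.4 and 42.3 CPM, and Gbp7 at 63.6 and 49.7, 16.4 and 31.5, and 32.5 and 31.4 CPM. The 3prime pair lay above all 5prime libraries for both in CPM. With the scaling factors Gbp4 passed in standard 5prime against 3prime, and Gbp7 did not (-0.69 ± 0.29 on the log2 scale, edgeR, adjusted p = 0.113). Gbp2 ranged from 19.1 to 42.8 CPM.

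**Figure D1:**
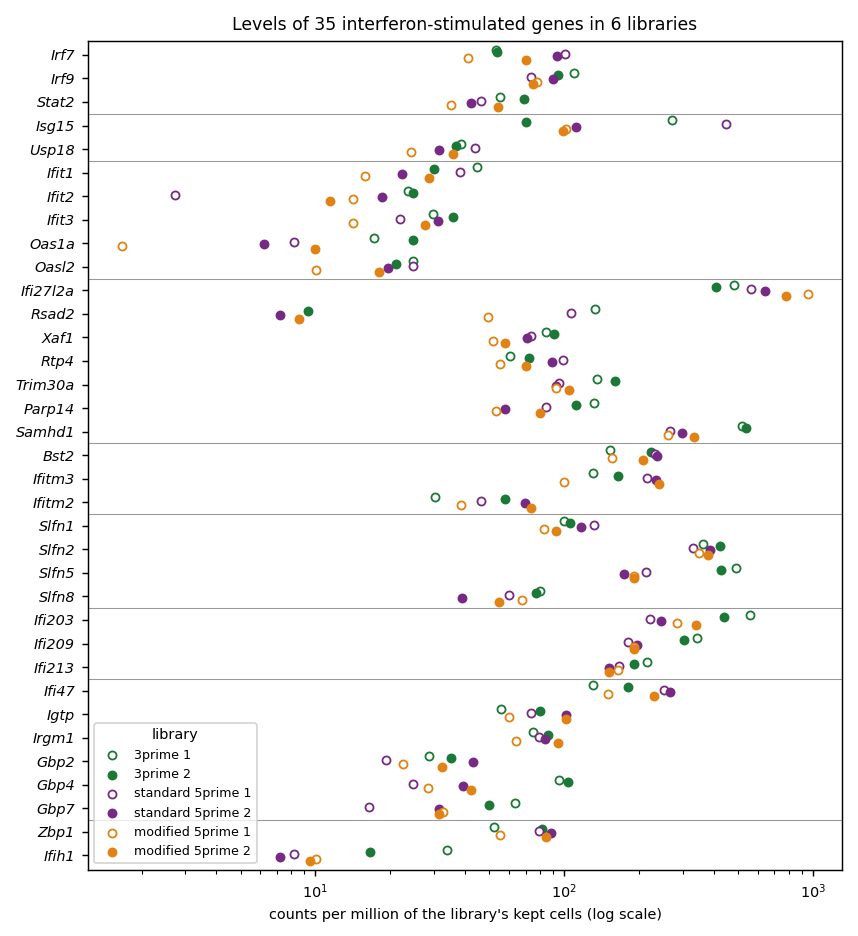
Level of each of the 35 genes in the 6 libraries, in CPM on a log axis, 1 point per library, with colour for the protocol, open points for replicate 1 and filled points for replicate 2. Rsad2 falls into 3 replicate 1 points between 49.2 and 133 CPM and 3 replicate 2 points between 7.22 and 9.30 CPM, while the 3prime points of Slfn5 and Gbp4 stand above the 5prime points.

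Some counts cannot be assigned to 1 gene with certainty. In the GENCODE M21 annotation of GRCm38, 16 of the 36 genes share over 10% of their exonic 31-base words with another gene. The largest shares were 68.8% for Oas1a, 61.8% for Ifit3, 55.5% for Ifitm2 and 47.2% for Ifi209. Slfn8 (26.8%), Ifi213 (26.5%), Ifi203 (21.6%), Ifitm3 (20.5%), Igtp (15.9%), Gbp7 (14.7%), Gbp4 (14.3%) and Isg15 (12.8%) follow, and their values are uncertain to that degree. Isg15 lies at chr4:156199424-156200818, Rsad2 at chr12:26442746-26456452 and Ifi27l2a at chr12:103442167-103443680, all on the minus strand. Slfn1 lies at chr11:83116849-83122670 on the plus strand, and Ifitm3 and Ifitm2 at chr7:141009586-141010770 and chr7:140954837-140955987 on the minus strand. All 36 are annotated as protein-coding.

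The choice of end for the barcode was compared first. With edgeR's quasi-likelihood test, 5 of 35 genes were higher and 3 lower in standard 5prime than in 3prime after Benjamini-Hochberg adjustment over all genes. Over all 11546 genes tested, 23.3% passed in either direction (12.5% higher and 10.8% lower), so the 8 of 35 are close to the background share. Of the activators and effectors, Irf7 was higher by 1.23 ± 0.25 on the log2 scale (estimate ± SE, adjusted p = 0.0106), Ifi27l2a by 0.82 ± 0.21 (adjusted p = 0.0239) and Rtp4 by 0.86 ± 0.21 (adjusted p = 0.0192). The GTPase Ifi47 was higher by 1.12 ± 0.25 (adjusted p = 0.0144) and Slfn1 by 0.64 ± 0.20 (adjusted p = 0.0457). Slfn5 fell by 0.87 ± 0.21 (adjusted p = 0.0194), Ifi203 by 0.72 ± 0.22 (adjusted p = 0.0408) and Gbp4 by 1.14 ± 0.26 (adjusted p = 0.0146). Ifi47 and Gbp4, both GTPase genes, lay on opposite sides. Ifi203 and Ifi27l2a did not pass in most of the fits with 1 library left out, and the Slfn1 call was the least stable. It was lost with DESeq2 (adjusted p = 0.119), with genes of any count (0.0710), without haemoglobin genes (0.0625), in T-gated cells (0.36, adjusted p = 0.286) and with any 1 of the 6 libraries left out (adjusted p from 0.0719 to 0.148). The median of the 35 estimates was 0.09, against -0.01 over all genes tested. The cause was not tested.

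The scaling bears on these calls. The normalisation factors (TMM) were 1.17 and 1.21 for 3prime and 0.895 to 0.944 for the 5prime libraries. Library totals without factors moved the median estimate of all genes by -0.38. With totals, 1 gene was higher (Irf7, 0.85, adjusted p = 0.039) and 10 were lower (edgeR, Benjamini-Hochberg), while 27.7% of all genes passed in either direction. Slfn5 (-1.26), Gbp4 (-1.52) and Ifi203 (-1.10) were among the 10, whereas Ifi27l2a (adjusted p = 0.160), Rtp4 (adjusted p = 0.138), Ifi47 (adjusted p = 0.0678) and Slfn1 (adjusted p = 0.396) did not pass. Libraries of 1 replicate number deviated together, and with the replicate number as a block 11 genes were higher and 6 lower, where 35.7% of all genes passed. All 8 genes above passed in that fit too. There Isg15 (1.04 ± 0.28, adjusted p = 0.0045), Bst2 (0.70, adjusted p = 0.0080), Ifitm3 (0.97, adjusted p = 0.0015), Ifitm2 (0.74, adjusted p = 0.013), Igtp (0.74, adjusted p = 0.0066) and Zbp1 (0.66, adjusted p = 0.017) were also higher. Oas1a (-1.49, adjusted p = 0.021), Ifih1 (-1.12, adjusted p = 0.043) and Samhd1 (-0.53, adjusted p = 0.034) were also lower. No gene passed without standard 5prime replicate 2, and 4 passed without 3prime replicate 1 or without standard 5prime replicate 1.

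Within 1 cell class the same contrast gave 4 higher and 4 lower genes of 31 tested in B-gated cells, and 5 higher and 5 lower of 29 in T-gated cells. Of all genes 29.9% passed in B-gated and 23.5% in T-gated cells. Ifi27l2a and Ifi47 were higher, and Slfn5, Ifi203 and Gbp4 lower, in both classes. Irf7 was at 1.29 ± 0.36 in T-gated cells and did not pass in B-gated cells (0.75, adjusted p = 0.102). Isg15, which did not pass over all cells (1.02 ± 0.67, adjusted p = 0.283), was higher by 1.08 ± 0.34 in B-gated (adjusted p = 0.011) and by 1.10 ± 0.34 in T-gated cells (adjusted p = 0.015). Rtp4 was at 0.82 ± 0.30 in T-gated cells (adjusted p = 0.044, and 0.0519 with DESeq2 over all cells) and at -0.042 in B-gated cells (adjusted p = 0.940).

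The added dNTP and the longer extensions were compared next. No member passed in modified 5prime against standard 5prime, with adjusted p from 0.996 to 1, and of all 11546 genes 0 passed, a background of 0%. At an unadjusted p under 0.05 there were 4 members by edgeR and 2 by DESeq2, which called 0 members after adjustment. The estimates furthest from 0 were -1.45 ± 0.68 for Isg15 and -0.81 ± 0.26 for Irf7. The replicate block called 0 members too, where 0.182% of all genes passed. Genes with any count in place of the filter on low counts gave 1 lower member.

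Against 3prime, the modified protocol had 1 higher and 2 lower members, where 18.4% of all genes passed (10.2% higher and 8.19% lower). The share of members (8.57%) is below that background. Ifi27l2a was higher by 1.31 ± 0.21 (edgeR, adjusted p = 0.00559), Slfn5 lower by -0.91 ± 0.21 (adjusted p = 0.0187) and Gbp4 lower by -1.12 ± 0.24 (adjusted p = 0.0144). The same 3 genes passed in standard 5prime against the same 3prime libraries, so the comparisons are not independent. With the replicate block 4 were higher and 5 lower, where 33.1% of all genes passed, adding Ifi47, Igtp and Ifitm2 above and Oas1a, Rsad2 and Samhd1 below. With totals in place of factors Ifi27l2a (0.96, adjusted p = 0.013) was higher and 8 genes were lower, Slfn5 and Gbp4 among them, where 24% of all genes passed. None passed without modified 5prime replicate 1.

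**Figure D2:**
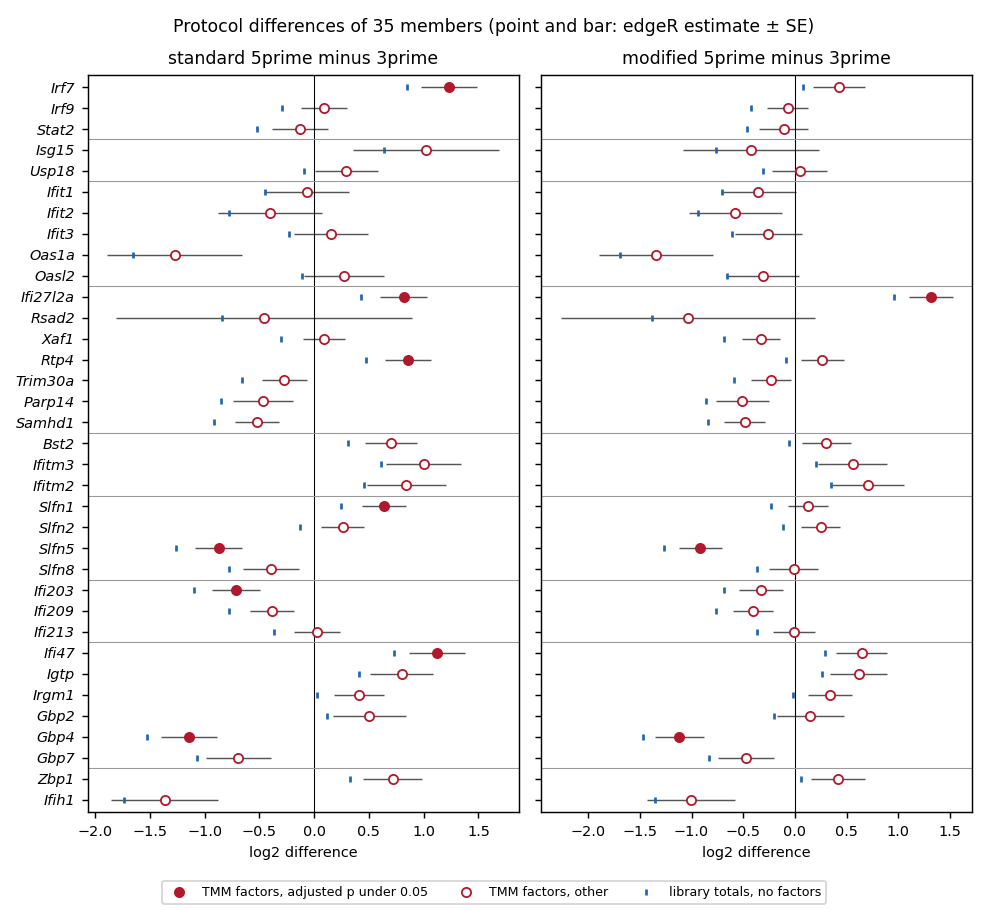
Log2 difference of each gene between standard 5prime and 3prime (left) and between modified 5prime and 3prime (right), with bars for the SE of the edgeR estimate. Filled points passed an adjusted p of 0.05, and the ticks give the estimate with library totals in place of factors, which lies to the left of the point for all 35 genes.

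Replicate numbers separated 3 genes. In replicate 2 against replicate 1, with the protocol in the model, Ifitm2 was higher by 0.81 ± 0.19 (edgeR, adjusted p = 0.00877), Isg15 lower by -1.41 ± 0.24 (adjusted p = 0.000131) and Rsad2 lower by -3.51 ± 0.24 (adjusted p = 3.29e-12). Among all genes 3.58% passed (0.65% higher and 2.93% lower), and 1 higher and 2 lower of 35 members make 8.57%. For Rsad2 the 3 replicate 1 libraries lay above the 3 replicate 2 libraries, and for Isg15 the replicate 1 library was the higher one in each protocol. The number of a library cannot be told apart from its stated preparation.

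Of the Isg15 and Rsad2 counts in kept cells of the replicate 1 libraries, a large share lay in cells with markers of red cell precursors. Cells with at least 2 counts of a list of 4 such markers, Car1, Car2 and Alas2 among them, here called erythroid-gated and chosen after the data were seen, numbered 53 to 122 in the replicate 1 libraries and 13 to 15 in the replicate 2 libraries. In 3prime replicate 1 they held 402 of 474 Isg15 counts (84.8%, exact 95% interval 81.3% to 87.9%), and in 3prime replicate 2 they held 6 of 174 (3.45%). The corresponding shares were 116 of 163 (71.2%) and 3 of 217 (1.38%) in standard 5prime, and 43 of 122 (35.2%) and 1 of 208 (0.481%) in modified 5prime. The erythroid share was thus higher in replicate 1 under each protocol. These intervals cover counting error only. The shares leave out barcodes that were not kept. In replicate 1 such barcodes held 49 Isg15 counts in 3prime, 136 in standard 5prime and 267 in modified 5prime. Their Rsad2 counts were 85, 65 and 157 in the same order, against 232, 39 and 59 in kept cells. The cells behind these barcodes were not gated.

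Rsad2 was split in the same way. Erythroid cells held 216 of 232 Rsad2 counts in 3prime replicate 1 (93.1%), 28 of 39 in standard 5prime replicate 1 (71.8%) and 50 of 59 in modified 5prime replicate 1 (84.7%). In the replicate 2 libraries they held 4 of 23, 2 of 14 and 2 of 18 counts. Outside the erythroid gate, Rsad2 was at 10.7 and 7.78 CPM in 3prime, 35.7 and 6.31 in standard 5prime, and 8.16 and 7.71 in modified 5prime, so that 5 of 6 libraries lay close together. Within the gate it was at 851 and 123, 488 and 54.2, and 524 and 73.5 CPM.

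Isg15 within the erythroid gate was at 1584 and 185 CPM in 3prime, 2022 and 81.3 in standard 5prime, and 451 and 36.8 in modified 5prime. Outside it the levels were 48.2 and 68.8, 152 and 113, and 71.6 and 99.8 CPM. The replicate 1 library was the higher one in every protocol within the gate, and in standard 5prime alone over all cells outside it. Cell classes outside the gate differed, by the values given further below. Replicate 1 was the higher library in every protocol in B-gated and in myeloid-gated cells, and the lower one in every protocol in T-gated cells. Over all erythroid-gated cells 47.2% had an Isg15 count and 43.9% an Rsad2 count, against 2.30% and 0.401% of B-gated cells. Erythroid-gated cells were deeper, and with every cell thinned to 250 counts the shares were 17.0% and 11.9% against 1.09% and 0.135%. Free RNA in the droplets was not measured. Ifi27l2a, by contrast, was at 19.7 to 110 CPM in erythroid-gated cells, below its level over all kept cells of the same library in all 6 libraries.

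With erythroid cells left out (the gate, or over 2% globin counts), no member passed in replicate 2 against replicate 1, with 5 at an unadjusted p under 0.05, and 0.161% of all genes passed. Isg15 was then at 0.22 ± 0.18 (edgeR, adjusted p = 0.746), the opposite sign, and Rsad2 at -0.78 ± 0.42 (adjusted p = 0.619). Ifitm2 kept its size at 0.77 ± 0.21 but did not pass (adjusted p = 0.301). In B-gated cells alone 0 of 31 passed (0.129% of all genes), and in T-gated cells 0 of 29 (0.145%). Rsad2 was at -2.40 ± 0.70 in B-gated cells (adjusted p = 0.264) and was not tested in T-gated cells. Isg15 was at -0.64 ± 0.26 in B-gated (adjusted p = 0.707) and 0.88 ± 0.23 in T-gated cells (adjusted p = 0.219). Without 3prime replicate 1, or without 3prime replicate 2, only Rsad2 passed over all cells. DESeq2 called Rsad2 alone as well, with adjusted p of 0.564 for Isg15 and 0.371 for Ifitm2.

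The same cells touch the protocol contrast. Without them 10 genes were higher and 4 lower in standard 5prime against 3prime, and 34.9% of all genes passed. Isg15 then passed (1.43 ± 0.24, edgeR, adjusted p = 0.00014), as did Bst2, Igtp, Zbp1 and Ifitm3 above and Samhd1 below. In modified 5prime against 3prime, 2 were higher, Isg15 (0.89 ± 0.23, adjusted p = 0.0057) and Ifi27l2a, and 3 lower, where 29.7% of all genes passed. With the replicate block as well, 10 and 5 passed in the first comparison (36.3% of all genes), and 5 and 4 in the second (33.9%).

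**Figure D3:**
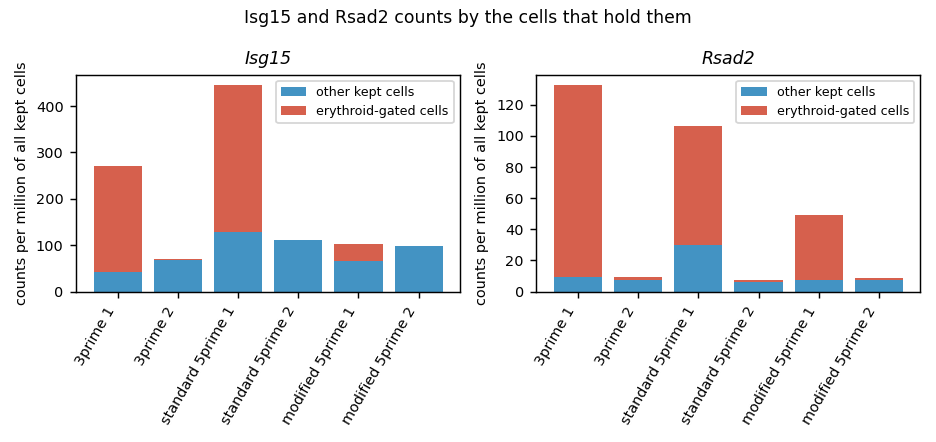
Isg15 (left) and Rsad2 (right) in the 6 libraries as stacked bars, in counts of the gene per 1000000 counts of all kept cells, from 0. The lower part is the share of other kept cells and the upper part that of erythroid-gated cells, which holds 84.8% of Isg15 and 93.1% of Rsad2 in 3prime replicate 1 and a smaller share in each replicate 2 library.

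Cell classes were then compared within libraries. A cell was gated to B, T, natural killer (NK) or myeloid cells by at least 2 counts of that class's markers and 0 counts of the other 3 classes. The marker lists hold none of the 35 genes. The gates held 6728 B, 3813 T, 184 NK and 471 myeloid cells, at a median of 295 to 914 counts per cell. Between 17.0% and 25.0% of kept cells held markers of more than 1 class and were not gated. The 35 genes together took 3315 to 5127 CPM of B-gated, 4695 to 5951 of T-gated, 1816 to 3527 of NK-gated and 7576 to 13684 of myeloid-gated cells. By this sum myeloid cells lay above the other classes in every library. Ifitm3 and Ifitm2 alone took a pooled 3160 and 859 CPM of myeloid-gated cells, against 18.5 and 1.38 of B-gated cells. The sum without these genes was not compared, so the order need not hold for the rest of the set. The filter on low counts left 28 of the 35 genes for this fit. Ifit1, Ifit2, Ifit3, Oas1a, Usp18, Gbp2 and Ifih1 did not pass it.

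In T against B cells 13 of 28 genes were higher and 5 lower. Of all 4023 genes tested 45.8% passed (21.8% higher and 24% lower). The median estimate was 0.30 for the 28 genes and -0.01 for all. Slfn1 separated the classes most widely. It was at 313 and 287 CPM in T-gated cells of 3prime, 316 and 357 in standard 5prime, and 263 and 273 in modified 5prime, against 0 to 8.70 CPM in B-gated cells. The difference was 6.15 ± 0.22 on the log2 scale (edgeR, adjusted p = 9.36e-63), and 15.8% of T-gated and 0.178% of B-gated cells had a count (7.62% and 0.0750% at 250 counts per cell).

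Of the GTPase genes among the 35, those tested were higher in T cells except Irgm1. Ifi47 was at 248 and 355, 479 and 544, and 314 and 493 CPM in T-gated cells and 84.0 and 85.3, 164 and 121, and 78.3 and 134 CPM in B-gated cells. The classes did not overlap, and the difference was 1.86 ± 0.11 (edgeR, adjusted p = 5.59e-36). Igtp was at 91.3 and 185, 141 and 217, and 106 and 230 CPM in T-gated cells against 34.8 to 60.3 CPM in B-gated cells, again without overlap. Igtp differed by 1.90 ± 0.15, Gbp7 by 2.11 ± 0.22 and Gbp4 by 1.46 ± 0.17, all with adjusted p of 3.13e-14 or lower. Irgm1 did not pass (0.17 ± 0.15, adjusted p = 0.381), and Gbp2 was not tested, at a pooled 64.0 CPM in T-gated and 18.8 in B-gated cells. Among the antiviral genes, Isg15 (1.16 ± 0.16), Zbp1 (1.13 ± 0.15), Rtp4 (1.08 ± 0.16), Bst2 (1.02 ± 0.12), Irf7 (0.83 ± 0.18), Ifi213 (0.74 ± 0.11), Slfn8 (0.51 ± 0.16) and Xaf1 (0.43 ± 0.16) were also higher in T cells. With DESeq2, Irf7 (adjusted p = 0.0587), Slfn8 (adjusted p = 0.131) and Xaf1 (adjusted p = 0.424) did not pass.

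B cells were the higher class for 5 genes. Ifitm3 was at 8.70 to 25.0 CPM in B-gated and 0 to 13.0 CPM in T-gated cells (-1.77 ± 0.41, edgeR, adjusted p = 0.000113). Stat2 differed by -0.84 ± 0.20, Ifi209 by -0.62 ± 0.11, Ifi203 by -0.34 ± 0.10 and Samhd1 by -0.32 ± 0.11. The last 2 calls were lost in the replicate 2 libraries alone (adjusted p = 0.425 for Ifi203 and 0.224 for Samhd1) and without 3prime replicate 1 (0.0731 and 0.0506). Samhd1 was also lost with genes of any count (0.0792) and without either standard 5prime library or modified 5prime replicate 2 (adjusted p from 0.0594 to 0.0850). The PYHIN genes thus lay on both sides, with Ifi213 higher in T and Ifi203 and Ifi209 higher in B cells. Ifi27l2a was at 392 to 1083 CPM in B-gated and 466 to 1187 CPM in T-gated cells, with a difference of 0.00 ± 0.13. Slfn2, Slfn5, Irf9, Trim30a, Parp14, Oasl2, Rsad2 and Ifitm2 did not pass either.

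The replicate sets were also fitted separately. In the replicate 1 libraries alone 8 of 23 tested genes were higher in T cells and 4 lower, and in the replicate 2 libraries 19 of 35 and 3. Of all genes 35.2% of 2165 and 30.5% of 7900 passed. Isg15 was at 0.14 ± 0.29 in the first (edgeR, adjusted p = 0.790) and 1.68 ± 0.18 in the second (adjusted p = 1.1e-19). Irf7 was at -0.13 (adjusted p = 0.859) and 1.29 ± 0.21 (adjusted p = 1.1e-08). More of the scarce genes passed the filter in the replicate 2 libraries, and there Ifit1 (2.76 ± 0.32), Ifih1 (2.58 ± 0.59), Ifit2 (1.80 ± 0.40), Gbp2 (1.76 ± 0.26), Ifit3 (1.38 ± 0.31) and Usp18 (1.25 ± 0.27) were higher in T cells. Of these only Ifit3 was tested in the replicate 1 libraries, at -0.80 ± 0.62 (adjusted p = 0.370). The difference between the sets was tested as an interaction, a comparison added after the data were seen. It passed for 1 of 31 members, Isg15, at 1.50 ± 0.30 (edgeR, adjusted p = 0.0024), where 0.0709% of 8458 genes passed. The estimates of Irf7 (1.40 ± 0.38, adjusted p = 0.180), Ifit1 (1.93 ± 0.50, adjusted p = 0.106) and Ifit3 (2.12 ± 0.58, adjusted p = 0.197) did not.

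Natural killer cells were few, with 10 to 54 per library and 92681 counts in all. Against T cells, 0 of 28 genes were higher and 13 lower, while 19.9% of all genes passed (5.47% higher and 14.4% lower). The median estimate was -1.54 for the members and -0.39 for all genes. On simulated counts, described further below, 14 of 59 calls in this comparison were genes that had not been changed. Ifi27l2a gave 1 count in all NK-gated cells, a pooled 10.8 CPM with an exact Poisson upper limit of 60.1, against 720 in T-gated and 662 in B-gated cells. The difference was -6.47 ± 0.59 (edgeR, adjusted p = 9.97e-20). Isg15 and Slfn1 gave 0 NK counts, where 3 counts correspond to 32.4 CPM, so that T cells were at least 4.18-fold higher for Isg15 and at least 9.30-fold higher for Slfn1. With the looser gate by ratio of markers, the Isg15 difference was -1.04 and did not pass (adjusted p = 0.0927).

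Igtp (-4.45 ± 0.79), Rtp4 (-3.84 ± 0.87), Irf9 (-2.77 ± 0.75), Ifi213 (-2.58 ± 0.47), Bst2 (-2.08 ± 0.44), Xaf1 (-2.04 ± 0.70), Slfn2 (-1.62 ± 0.30), Samhd1 (-1.45 ± 0.33), Slfn5 (-0.94 ± 0.30) and Ifi47 (-0.73 ± 0.27) were also lower in NK cells. Igtp and Rtp4 gave 1 NK count each, Irf9 2 and Xaf1 3, so the sizes of these differences are poorly determined. With DESeq2 Irf9 (adjusted p = 0.0539), Xaf1 (0.175), Slfn5 (0.233) and Ifi47 (0.553) did not pass. In the replicate 1 libraries alone Rtp4 (edgeR, adjusted p = 0.0996), Isg15 (0.124), Samhd1 (0.235), Ifi47 (0.336) and Slfn5 (0.863) did not. Gbp7 and Gbp4 did not pass: Gbp7 was at a pooled 162 CPM in NK-gated and 77.8 in T-gated cells (0.58 ± 0.43, adjusted p = 0.392), and Gbp4 at 140 and 114 (-0.18 ± 0.43, adjusted p = 0.835). Ifi47 was at 300 and 438, 0 and 595, and 251 and 177 CPM in NK-gated cells. By CPM the libraries were split on Ifi47. NK-gated cells lay above T-gated cells of the same library at 300, 438 and 595 CPM, and below them at 0, 251 and 177 CPM. The value of 0 came from 10 cells. The NK factors were large, from 1.11 to 2.98, and totals in place of factors moved the median of all genes by 0.50. The count of lower members was then 10, where 16.2% of all genes passed, and Ifi47, Slfn5 and Xaf1 did not pass. The same 3 were lost with RLE factors.

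Myeloid cells had 16 higher and 3 lower genes of 28 against B cells, where 43.7% of all genes passed (20.3% higher and 23.4% lower). The median was 0.69 for the members and -0.15 for all genes. Ifitm3 was at 2913 and 2392 CPM in myeloid-gated cells of 3prime, 3487 and 3867 in standard 5prime, and 2484 and 3766 in modified 5prime. The B-gated cells lay at 8.70 to 25.0 CPM, a difference of 7.29 ± 0.18 (edgeR, adjusted p = 2.12e-85). Ifitm2 was at 882 and 721, 925 and 975, and 590 and 996 CPM against 0 to 4.49 CPM in B-gated cells (8.77 ± 0.26, adjusted p = 2.01e-75). Ifitm3 was found in 62.4% of myeloid-gated, 0.788% of B-gated and 0.236% of T-gated cells (46.8%, 0.480% and 0.0529% at 250 counts per cell).

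Irf7 was at 241 and 182, 285 and 421, and 186 and 304 CPM in myeloid-gated cells, against 28.1 to 60.3 CPM in B-gated cells (2.59 ± 0.22, edgeR, adjusted p = 2.46e-22). Bst2 was at 829 and 661, 712 and 853, and 310 and 465 CPM against 93.5 to 215 CPM (2.33 ± 0.15). Isg15 was at 481 and 152, 569 and 299, and 373 and 199 CPM against 35.9 to 129 CPM (2.09 ± 0.23). For all 3 genes the myeloid level exceeded the B level in every library. Oasl2 (2.89 ± 0.35) was at 62.1 to 356 CPM and Rsad2 (3.18 ± 0.46) at 30.4 to 310 CPM in myeloid-gated cells, from 22 to 158 cells per library.

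Slfn1 was at 214 and 243, 427 and 166, and 0 and 114 CPM in myeloid-gated cells (5.38 ± 0.38 against B cells), so a gene near 0 in B cells was found in both T and myeloid cells. Zbp1 (1.71 ± 0.23), Rtp4 (1.27 ± 0.26), Samhd1 (0.93 ± 0.14), Trim30a (0.73 ± 0.19), Stat2 (0.72 ± 0.27), Parp14 (0.67 ± 0.24), Ifi27l2a (0.58 ± 0.15) and Slfn5 (0.51 ± 0.15) were higher by smaller amounts. Gbp4 (-1.43 ± 0.53), Ifi203 (-0.91 ± 0.17) and Ifi213 (-0.82 ± 0.26) were lower. With genes of any count Stat2 (adjusted p = 0.179), Parp14 (0.195), Slfn5 (0.248) and Ifi27l2a (0.0602) did not pass, and with the gate by ratio Gbp4 (0.0895), Parp14 (0.134) and Stat2 (0.0547) did not. Gbp4 was also lost without standard 5prime replicate 2 (0.0707) or modified 5prime replicate 2 (0.114), and Ifi213 (0.0629) and Parp14 (0.0551) without modified 5prime replicate 2. Gbp4, higher in T than in B cells, gave 6 counts in all myeloid-gated cells. In the replicate 1 libraries alone 11 of 23 were higher and 2 lower, and in the replicate 2 libraries 21 of 35 and 1, where 29.2% and 28.1% of all genes passed.

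**Figure D4:**
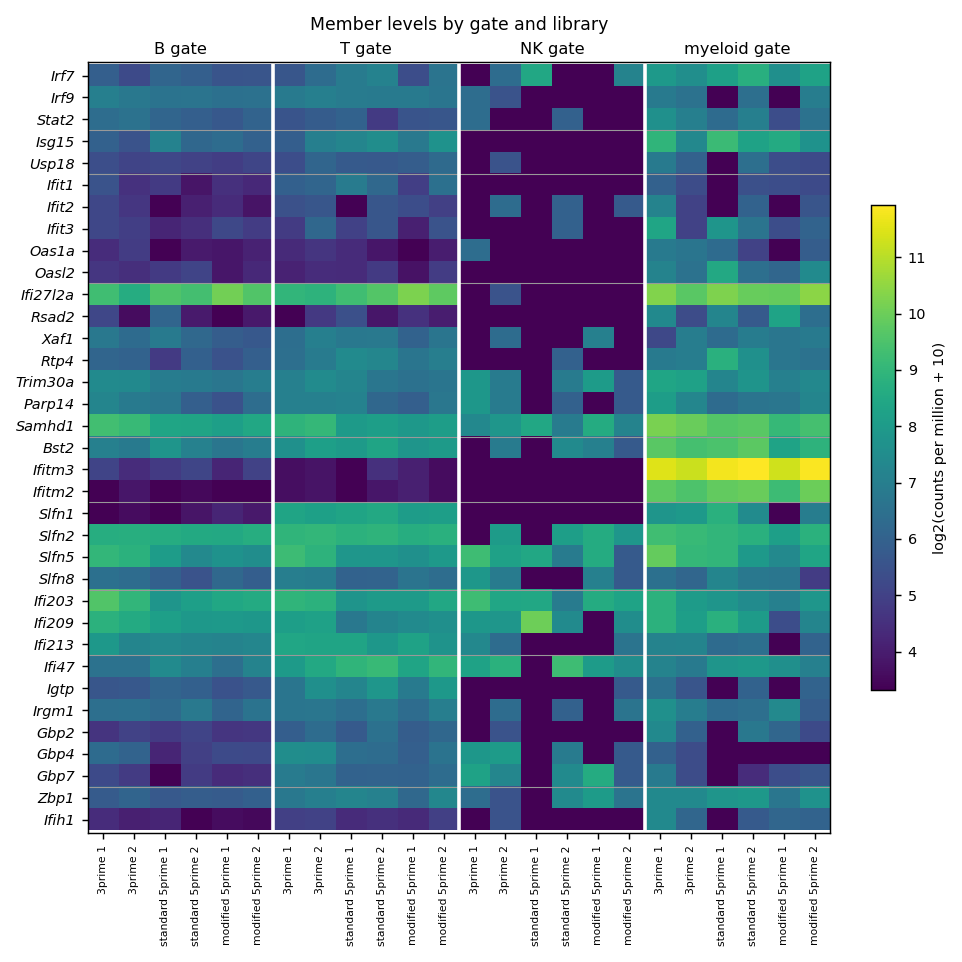
Heat map of the 35 genes (rows) in B-, T-, NK- and myeloid-gated cells of each library (columns), coloured by log2(CPM + 10). Ifitm2 and Ifitm3 are bright in the 6 myeloid columns alone, Slfn1 is dark in all 6 B columns, and Ifi27l2a is bright in B, T and myeloid columns and dark in NK columns.

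Plasmacytoid dendritic cells, gated by at least 2 different markers, numbered 10 in all, with 1 to 3 per library. Bst2, a surface marker of these cells in the mouse, gave 66 counts in them, or 6745 CPM (exact Poisson interval 5217 to 8581), with 9 of 10 cells positive. Irf7 gave 6 counts in 4 cells (613 CPM, 225 to 1335). No test was made on 10 cells.

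Of 80 other genes of the pathway, 71 had a row and 68 were tested over all cells. The type I and type III interferon genes on the list were not analysed here. The interferon gamma gene Ifng was at 0 to 6.19 CPM. In standard 5prime against 3prime 13 of the 68 were higher and 2 lower, where 12.5% of all genes were higher and 10.8% lower. Socs1, an inhibitor of the kinases, was higher by 2.71 ± 0.39 (edgeR, adjusted p = 0.00286), and Ly6e, a membrane protein, by 1.47 ± 0.21 (adjusted p = 0.00286). The ubiquitin ligase gene Herc6 (-0.98 ± 0.28) and Eif2ak2, the kinase PKR (-0.97 ± 0.27), were lower. In modified against standard 5prime 0 passed, as over all genes. Against 3prime 6 were higher and 3 lower, Socs1 again at the top with 2.49 ± 0.38, where 18.4% of all genes passed.

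In replicate 2 against replicate 1 the exonuclease gene Isg20 was lower (-1.45 ± 0.18, edgeR, adjusted p = 7.01e-07), and Tgtp1, Tgtp2 and Irf1 were higher. Of all genes 3.58% passed there. In T against B cells 15 of 45 were higher and 12 lower, where 21.8% of all genes were higher and 24% lower. The GTPase genes Tgtp1 (5.08 ± 0.29) and Tgtp2 (2.51 ± 0.16) were higher, and the transcription factors Irf5 (-5.95 ± 0.31) and Irf8 (-5.27 ± 0.19) lower. Other GTPase genes of the list lay on both sides by CPM. Gbp3 was at 28.8 to 51.7 CPM in B-gated and 3.41 to 33.3 CPM in T-gated cells. B lay above T in every library for Gbp3 and in most libraries for Gbp5. T lay above B in every library for Gbp6, Gbp8, Irgm2 and Iigp1. In NK against T cells Ifng was higher by 4.13 ± 0.74 (edgeR, adjusted p = 1.63e-06), 1 of 5 higher genes, and Tgtp1 was among the 11 lower ones (-3.86 ± 0.87). Of all genes 5.47% were higher and 14.4% lower there. In myeloid against B cells 16 were higher and 10 lower, led by Ifi204 (8.24 ± 0.47) and Ifitm1 (7.52 ± 0.57), where 20.3% of all genes were higher and 23.4% lower.

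Detection per cell was compared at 1 depth, by thinning each cell to 250 counts. At least 1 of the 35 genes was found in 51.3% to 67.0% of B-gated, 65.4% to 72.3% of T-gated and 76.3% to 83.5% of myeloid-gated cells. The 3prime libraries held the 2 highest values among B and among T cells. Without thinning the ranges were 68.9% to 88.6%, 78.1% to 95.4% and 89.5% to 95.5%. Shallower cells were left out, 58 of the B-gated, 31 of the T-gated and 3 of the myeloid-gated cells. NK-gated cells gave 28.6% to 65.2% over 7 to 54 cells a library, too few for an order.

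Joint detection was measured for Isg15, Usp18, Ifit1, Ifit2, Ifit3, Oas1a and Oasl2 at 250 counts per cell. The expected number of cells with 2 or more of the 7 genes is what the separate shares of the genes give in each library if they were independent. In T-gated cells 36 of 3782 held 2 or more, against 8.32 expected, a ratio of 4.33. The ratio was above 1 in all 6 libraries, from 2.90 to 6.23, with 5, 8, 2, 10, 2 and 9 cells from 3prime replicate 1 to modified 5prime replicate 2. In B-gated cells 23 of 6670 held 2 or more against 3.33 expected, a ratio of 6.90, in 4 of 6 libraries. In myeloid-gated cells 9 of 468 did so against 3.02 expected, and in NK-gated cells 0 of 180. These ratios are descriptions with no test, since cell subsets and remaining doublets also place genes in the same cells and were not separated.

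Single pairs were counted in the same way. In T-gated cells Isg15 and Ifit1 were found together in 15 cells against 1.54 expected, in 6 of 6 libraries. Isg15 and Bst2 were found together in 20 cells against 6.00 expected, also in 6 of 6. Over the 148 pairs with at least 10 joint T cells the median ratio was 1.38, and 25 pairs exceeded 2. In B-gated cells the median over 104 pairs was 1.39, and Isg15 with Bst2 stood at the top with 10 cells against 2.12 expected. Pairs were kept by their observed joint count, which pushes these ratios up, so the medians do not describe all pairs.

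**Figure D5:**
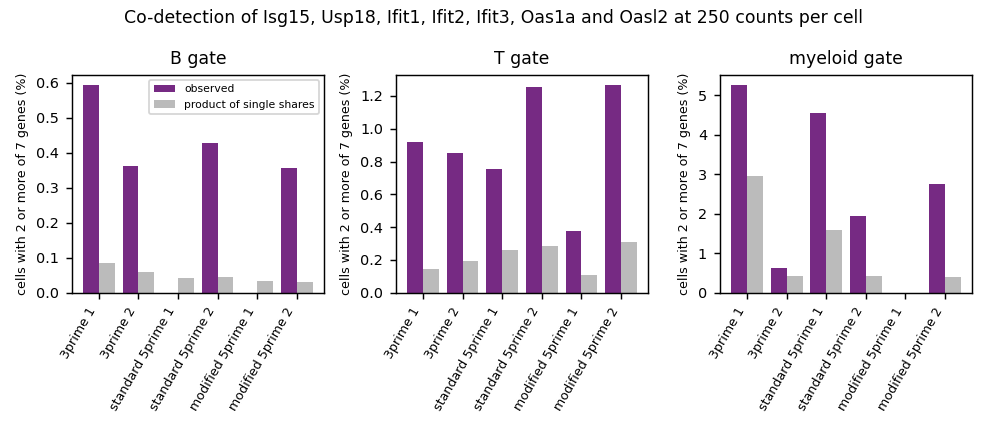
Percentage of B-, T- and myeloid-gated cells with at least 2 of the 7 genes in each library at 250 counts per cell, observed (purple) and expected from the product of the single shares (grey), each panel with its own axis from 0. Observed lies above expected in all 6 libraries for T cells, whereas B cells show 0 observed cells in standard 5prime replicate 1 and modified 5prime replicate 1.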

How the data were processed

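The deposited tables hold whole-number counts per gene symbol and cell barcode, which the authors made from long reads. Per the submitters' processing notes the build was mm10, and Seurat (no version named) was used for replicate 2. Not given in the sources used here: aligner, annotation, use of strand, cell calling and molecular identifiers. In all, 15578 cells had 200 genes or more and no more than 20% mitochondrial counts. No doublet caller was run. Counts were summed per library, or per library and gate, and fitted in R 4.3.3 with edgeR 4.0.16 (TMM factors, genes kept by filterByExpr). Quasi-likelihood p-values were adjusted by Benjamini-Hochberg over all genes at 0.05. Protocols were fitted with the group alone over 6 libraries (3 residual degrees of freedom). Gates were fitted with the library as a block, with at least 10 cells per sum. An exact test of 2 against 2 libraries cannot go below 0.333. DESeq2 1.42.0 was an alternative, beside other factors, filters, gates and left-out libraries.

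The labels give the same replicate numbers to each protocol. Same-numbered libraries deviated together, with correlations of 0.598, 0.474 and 0.385 over 6842 genes, so by this check the number pairs the samples. The protocol comparisons are without the block, and the fit with it is the alternative printed beside them. No library pair agreed within sampling noise (smallest chi-square per degree of freedom 3.26). On simulated counts for standard 5prime against 3prime, 8.16% of genes changed by log2 1 and 84.3% of those changed by log2 2 were recovered (11215 genes). For replicate 2 against 1 the shares were 75.5% and 100% (11321 genes), and for T against B 55.3% and 61.9% (3440 genes). For NK against T they were 8.82% and 36.7% (3414 genes), and for myeloid against B 34.0% and 67.0% (3447 genes). A changed gene that the filter on low counts removed was scored as not recovered, so these shares mix the filter with the test. Genes that had not been changed made up 14 of 59 calls for NK against T. They made up 2 of 119 for T against B and 2 of 102 for myeloid against B. For standard 5prime against 3prime they were 6 of 100, and for replicate 2 against 1 they were 8 of 184. Each simulation used a single dispersion and no differences between sums other than depth and the changed genes, unlike the data.

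The genes, the lists and the comparisons were chosen with earlier results of these data known. Genes with a mean of at least 50 CPM (26 genes) or past the threshold in any comparison are given in every library, the others by range. Of the other pathway genes, up to 10 of those that passed with the largest differences were eligible to be named. Further GTPase genes of that list are named by CPM for T and B cells. Promoter windows were searched with Python 3.11.15. Some genes of the lists are not reported here.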

Additional observations from a re-analysis of the deposited data

Results flagged for a closer look

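The difference between T-gated and B-gated cells in Isg15 was larger in the replicate 2 libraries than in the replicate 1 libraries, by 1.50 ± 0.30 on the log2 scale (edgeR, adjusted p = 0.0024). Isg15 stood at 53.9 and 49.6 CPM in B and T cells of 3prime replicate 1, 129 and 141 in standard 5prime replicate 1, and 71.7 and 102 in modified 5prime replicate 1. In replicate 2 the same pairs were 35.9 and 120, 62.5 and 178, and 53.9 and 198 CPM. T cells exceeded B cells in 3 of 3 replicate 2 libraries and in 2 of 3 replicate 1 libraries. Of 31 members 28 had a positive estimate, with a median of 0.30 against -0.00 over all genes. The comparison was added after the data were seen. No member passed with DESeq2 (5 at an unadjusted p under 0.05) or without 3prime replicate 1. The replicate numbers cannot be told apart from the stated preparations.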

How the results depend on the processing

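Counts of members past the threshold moved by over 1.5 times in the settings that follow. The share of all genes that passed moved too. In standard 5prime against 3prime it was 23.3%, 35.7% with the replicate block and 34.9% with erythroid cells left out. Where that share is not printed, as with 1 library left out here and above, a moved count is no result about these genes in particular. For standard 5prime against 3prime (8 members) the replicate block gave 17, genes with any count 14, erythroid cells left out 14, and that with the block 15. Leaving out 1 library gave 0 to 11. For modified against standard 5prime (0) genes with any count gave 1, and each library left out gave 0. For modified 5prime against 3prime (3) the replicate block gave 9, genes with any count 6, B-gated cells 6, T-gated cells 5, erythroid cells left out 5, that with the block 9, and totals without factors 9, with 0 to 4 when 1 library was left out. For replicate 2 against 1 (3) no protocol term gave 1, DESeq2 1, genes with any count 5, and B-gated, T-gated or erythroid-free sums 0, with 1 to 4 when 1 library was left out. NK against T (13) gave 5 in the replicate 1 libraries and 10 to 19 with 1 library left out. T against B (18) gave 15 to 23 and myeloid against B (19) 16 to 26 with 1 library left out. The T minus B interaction (1) gave 0 with DESeq2, 2 with a gate of at least 3 counts, and 0 to 3 with 1 library left out. Settings chosen after seeing the data are the erythroid-free sums, totals without factors, single replicate sets, the interaction and the unthinned joint detection. The replicate block changed no other call than those given with each comparison.

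Of 924 results for single called members under an alternative, 805 kept their direction and their side of the threshold, 115 no longer passed and 4 changed sign. Those 4 were Rtp4 between standard 5prime and 3prime in B-gated cells (-0.042), Isg15 between replicates in T-gated cells (0.88) and without erythroid cells (0.22), and Irf7 between T and B cells in the replicate 1 libraries (-0.13). The cause was not tested. Among all genes called, the share that was higher moved from 53.7% to 17.4% with totals in standard 5prime against 3prime (63.6% with DESeq2). For modified 5prime against 3prime it moved from 55.5% to 17.9% (67.8% with DESeq2), and for NK against T from 27.5% to 60.2% (51.0% with RLE factors, 64.0% with DESeq2). For T against B it moved from 47.6% to 36.6% with RLE factors, and for replicate 2 against 1 from 18.2% to 2.73% with DESeq2.

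The median share of cells with a member count rose with depth, from 55.8% at 250 counts to 70.5% at 400 and 73.5% unthinned in B, from 66.5% to 82.3% and 88.9% in T, from 47.9% to 62.5% and 68.5% in NK, and from 79.7% to 86.1% and 93.3% in myeloid cells. The joint detection ratio fell from 6.90 to 4.82 at 400 counts and 4.07 unthinned in B, from 4.33 to 3.55 and 2.77 in T, and from 2.98 to 2.00 and 1.45 in myeloid cells. At 400 counts T cells exceeded the expectation in 5 of 6 libraries, with 0 of 31 cells in standard 5prime replicate 1. Depth limits the scarce genes: 3 counts correspond to 1.21 to 8.20 CPM per library and to 32.4 CPM over all NK-gated cells.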
